A study of Homo sapiens with 2 samples.

Results

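SKOV3 cells, a human ovarian adenocarcinoma line, were compared on Agilent whole human genome arrays after suppression of the transcription factor RUNX2. The transcripts described here are those that RefSeq lists without a coding sequence, whose accessions start with NR. They were taken as all non-control probes with such an accession, which gave 626 of the 41000 probes on the arrays. These probes stand for 486 of the 32890 transcript identifiers on the arrays, and 411 of them were matched to 406 gene symbols.

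The RUNX2-suppressed RNA came from cl-sh3, a single puromycin-selected clone of SKOV3 cells that carried a short hairpin RNA against RUNX2 in the lentiviral vector pLKO.1-puro. The control RNA came from a mock-transfected SKOV3 clone that carried a scramble sequence in the same vector. Both RNAs were hybridized together on 2 arrays with the cyanine dyes exchanged. In hybridization 1 cl-sh3 was in Cy5, and in hybridization 2 it was in Cy3. The 2 hybridizations hold the same 2 RNAs on 1 slide and count as 1 replicate. No test between the clones is therefore given, and each difference is shown by its value in both hybridizations, whose distance is technical error only. Differences between these 2 clones cannot be told apart from the effect of RUNX2 suppression.

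Noncoding transcripts of this kind fall into families with different biology. Small nucleolar RNA (snoRNA) host genes are spliced transcripts whose introns are cut out and trimmed into snoRNAs, which guide the chemical modification of ribosomal RNA. The spliced exons of many of them are not used as messages and are removed by nonsense-mediated decay during translation. Antisense RNAs are made from the strand opposite a coding gene, and pseudogenes are copies of coding genes that have lost their reading frame. Other long noncoding RNAs act in the nucleus or the cytoplasm on chromatin, splicing or messenger RNA stability.

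A probe was kept when, on each array, the same RNA (either one) gave a signal well above background. Among the NR probes, 519 were kept (82.9%), against 88.0% of all probes and 92.2% of probes for coding messages. The median spot signal lay between 451 and 902.5 per channel, over median local backgrounds of 43 to 166.5, and 0 spots were saturated. Of the 3 RUNX2 probes, the brightest was lower in the knockdown clone, at -2.04 in hybridization 1 and -1.30 in hybridization 2 as log2 of cl-sh3 over control. The other RUNX2 probes gave means of 0.02 and -0.23. All 6 epithelial markers examined (KRT8, KRT18, KRT19, EPCAM, CDH1 and ERBB2) were well above background. Of 5 markers of other cell types (PTPRC, CD3E, PECAM1, ALB and MYH11), ALB and MYH11 were not kept. The kept markers had normalized signals from 149 to 980 in both RNAs, against 749 to 117493 for the epithelial markers. Normalized signals are in arbitrary units, and levels of different probes are not comparable because each probe binds its target with its own strength.

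Upon RUNX2 suppression, 5 of the 519 kept NR probes fell at least 2-fold in both hybridizations and 0 rose at least 2-fold in both. Over all 36060 kept probes the same rule took 142 (0.394%) as lower and 44 (0.122%) as higher. The 5 probes belonged to the pseudogene ATP8B5P, to SNHG1, SNHG12 and SNHG8, which are all snoRNA host genes, and to the accession NR_002802, which the RefSeq table used here does not name. Most NR probes lay near no difference. Their median log2 ratio was 0.02, against 0.01 for all kept probes, and the middle of the distribution ran from -0.11 at the lower quartile to 0.12 at the upper one. The median distance between the hybridizations was 0.20 log2 units for NR probes and 0.22 for all probes. Between hybridization 1 and hybridization 2, Pearson's r was 0.56 and Spearman's rho 0.28 across the 519 NR probes. These points share the same 2 RNAs, and the probes are not independent replicates.

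**Figure D1:**
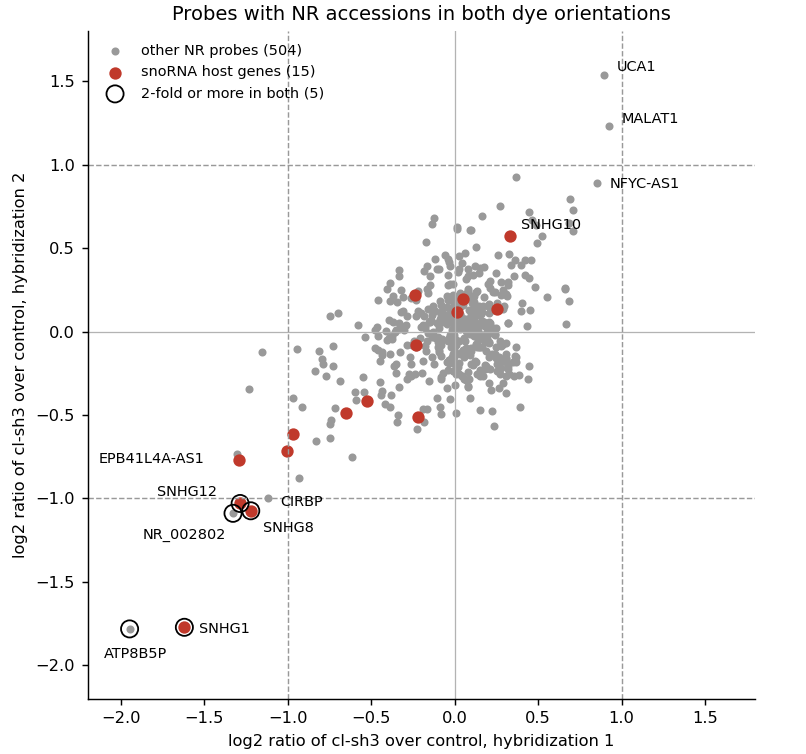
Log2 ratio of cl-sh3 over control in hybridization 1 (x axis) and hybridization 2 (y axis) for the 519 kept NR probes, with the 15 probes of snoRNA host genes in red and the 5 probes at least 2-fold lower in both hybridizations circled. Dashed lines mark 2-fold differences. SNHG1 and ATP8B5P stand apart at the lower left, and UCA1 and 1 MALAT1 probe lie highest at the upper right without passing 2-fold in hybridization 1.

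The snoRNA host genes had the lowest median ratio of the NR classes. All 15 probes of 13 host genes were kept, and their median log2 ratio was -0.47, with medians of -0.53 and -0.49 in hybridizations 1 and 2. Of these probes, 10 were lower in cl-sh3 in both hybridizations, 4 were higher in both, and 1 changed sign. By comparison, 27.3% of all kept probes were lower in both hybridizations and 29.8% were higher in both. A log2 ratio of -0.5 or less in both hybridizations was seen for 6 of the 15 host probes and for 3.24% of all kept probes. The host probes were brighter than most, with a median log2 intensity of 11.6 against 9.36 for all kept probes. Among the 14024 kept probes between the lower and upper intensity quartiles of the host probes, the median ratio was 0.01 and 5.06% were at -0.5 or less in both hybridizations.

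SNHG1 encodes the host transcript of SNORD22 and other box C/D snoRNAs and had the lowest ratio of the class. The normalized signal of its probe was 25693 and 21397 in the control clone in hybridizations 1 and 2, and 8358 and 6265 in cl-sh3. Both cl-sh3 values lay below both control values. The log2 ratios were -1.62 and -1.77, a mean 3.24-fold decrease. SNHG12, which hosts H/ACA and C/D box snoRNAs, gave signals of 6353 and 5461 in the control clone and of 2605 and 2674 in cl-sh3. Its log2 ratios of -1.29 and -1.03 make a mean 2.23-fold decrease. The second value is close to the 2-fold limit, and with median centring in place of intensity-dependent normalization SNHG12 no longer passed it. SNHG8 gave 23139 and 21544 in the control clone and 9918 and 10235 in cl-sh3, and the log2 ratios were -1.22 and -1.07, a mean 2.22-fold decrease. The values of the 2 clones did not overlap for any of these 3 transcripts. They were picked by the 2-fold rule, which makes this likely, so it adds no further support.

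**Figure D2:**
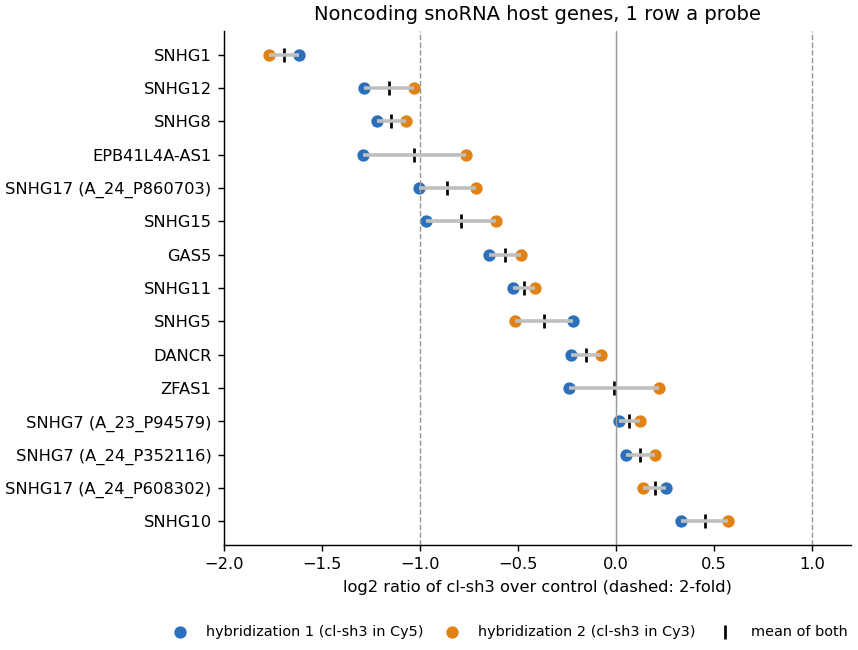
Log2 ratio of cl-sh3 over control (x axis) for each of the 15 probes of snoRNA host genes, with blue points for hybridization 1, orange points for hybridization 2 and a black tick for their mean. The ratios run from a mean of -1.70 for SNHG1 to 0.45 for SNHG10, and both probes of SNHG17 are shown apart because they differ.

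Several other host genes were lower in cl-sh3 in both hybridizations without meeting the 2-fold rule. EPB41L4A-AS1, whose intron holds a snoRNA and which is named for its position opposite EPB41L4A, gave signals of 20693 and 16269 in the control clone and of 8452 and 9552 in cl-sh3. Its log2 ratios were -1.29 and -0.77. The coding gene EPB41L4A, on the other strand, had ratios of -0.10 and 0.24. SNHG15 gave -0.97 and -0.61, and SNHG11 gave -0.53 and -0.42. GAS5 is known to accumulate when cells stop growing and hosts a row of C/D box snoRNAs. Its signals were 7300 and 7614 in the control clone and 4654 and 5430 in cl-sh3, and the log2 ratios were -0.65 and -0.49. SNHG5 gave -0.22 and -0.51, and DANCR, described as a brake on differentiation, gave -0.23 and -0.08.

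The remaining host genes did not share this direction. ZFAS1, the antisense host gene beside ZNFX1, gave -0.24 in hybridization 1 and 0.22 in hybridization 2. Both SNHG7 probes were slightly above 0 in both hybridizations, with means of 0.07 and 0.12. SNHG10 was the highest, with ratios of 0.33 and 0.57 and signals of 838 and 641 in the control clone against 1053 and 953 in cl-sh3. The 2 probes of SNHG17 gave different answers. The brighter probe gave -1.01 and -0.72, and the dimmer one gave 0.26 and 0.14, with its control RNA not well above background in hybridization 2.

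**Figure D3:**
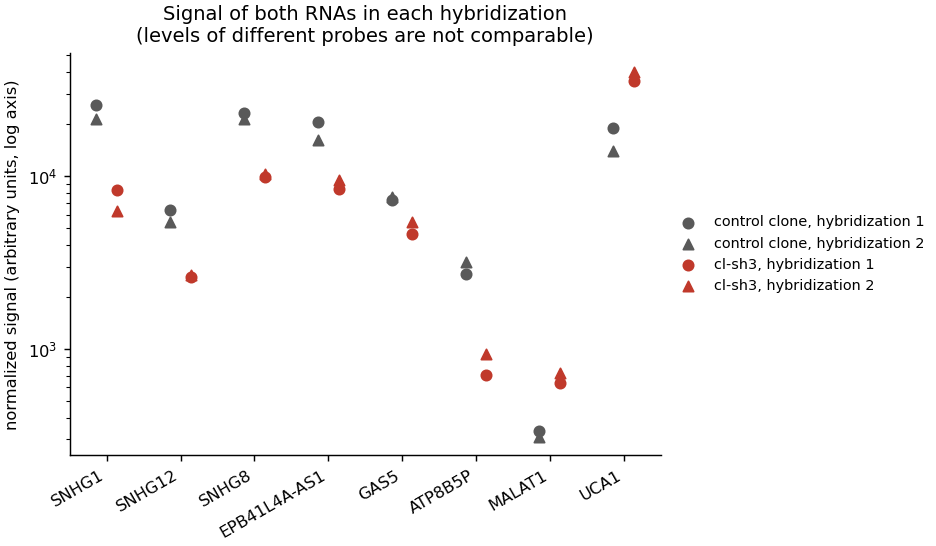
Normalized signal in arbitrary units (log axis) of the control clone (grey) and cl-sh3 (red) in hybridization 1 (circles) and hybridization 2 (triangles) for 8 NR transcripts, with MALAT1 shown by the probe with its highest ratio. The 2 RNAs are separated in both hybridizations for each transcript, which follows largely from the choice of transcripts and probes. Levels of different probes cannot be set against each other.

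The first transcribed bases and the upstream sequence of the host genes are shown for the 4 with the lowest ratios and for GAS5. GAS5 was picked and is not next in order of ratio. RUNX2 acts by binding DNA, and direct action of RUNX2 on these genes was not tested. Each window holds 250 bases before the RefSeq start and 50 after it, from the RefSeq table for GRCh38.p14, written along the gene's own strand. The windows lie at chr11:62855836-62856135 on the minus strand for SNHG1, at chr1:28581824-28582123 on the minus strand for SNHG12, at chr4:118278512-118278811 on the plus strand for SNHG8, at chr5:112160276-112160575 on the plus strand for EPB41L4A-AS1, and at chr1:173868996-173869295 on the minus strand for GAS5. Capitals mark the RUNX core motif TGTGGT on either strand.
SNHG1: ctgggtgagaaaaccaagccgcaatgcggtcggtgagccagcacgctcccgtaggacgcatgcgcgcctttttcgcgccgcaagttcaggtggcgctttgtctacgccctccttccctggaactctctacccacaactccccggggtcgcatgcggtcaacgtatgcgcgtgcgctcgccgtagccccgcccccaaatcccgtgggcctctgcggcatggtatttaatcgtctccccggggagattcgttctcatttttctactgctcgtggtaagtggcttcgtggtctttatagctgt
SNHG12: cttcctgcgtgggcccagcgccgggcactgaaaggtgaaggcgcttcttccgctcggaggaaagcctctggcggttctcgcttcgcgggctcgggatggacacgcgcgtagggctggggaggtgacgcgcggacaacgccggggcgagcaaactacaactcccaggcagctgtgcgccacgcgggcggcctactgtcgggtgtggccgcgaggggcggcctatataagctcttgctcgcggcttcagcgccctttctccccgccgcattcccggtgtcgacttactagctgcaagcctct
SNHG8: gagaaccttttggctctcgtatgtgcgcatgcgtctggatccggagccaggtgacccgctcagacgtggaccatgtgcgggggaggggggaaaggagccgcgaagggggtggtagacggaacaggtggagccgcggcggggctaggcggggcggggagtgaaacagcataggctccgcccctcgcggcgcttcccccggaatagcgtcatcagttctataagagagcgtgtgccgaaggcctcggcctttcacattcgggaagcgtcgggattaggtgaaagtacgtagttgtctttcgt
EPB41L4A-AS1: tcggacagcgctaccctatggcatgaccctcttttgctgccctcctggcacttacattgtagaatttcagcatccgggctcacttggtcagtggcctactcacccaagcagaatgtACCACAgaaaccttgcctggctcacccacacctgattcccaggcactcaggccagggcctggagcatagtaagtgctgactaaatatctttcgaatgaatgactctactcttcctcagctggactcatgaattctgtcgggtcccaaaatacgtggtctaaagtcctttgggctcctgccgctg
GAS5: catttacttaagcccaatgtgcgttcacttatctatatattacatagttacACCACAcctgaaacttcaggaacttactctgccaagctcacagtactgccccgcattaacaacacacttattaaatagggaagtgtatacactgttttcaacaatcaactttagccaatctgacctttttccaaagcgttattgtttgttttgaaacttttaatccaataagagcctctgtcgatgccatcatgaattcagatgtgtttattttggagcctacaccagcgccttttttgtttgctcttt

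The 3 host genes that fell at least 2-fold held no TGTGGT in these windows. Only this sequence was searched for RUNX, so variant forms of the site would be missed. EPB41L4A-AS1 held 1 match beginning 134 bases before the start and GAS5 held 1 beginning 199 bases before it, both on the strand opposite the gene. Windows were found for 12 of the 13 host genes, and 4 of the 12 held the motif, the others being SNHG5 and ZFAS1. SNHG15, with a mean of -0.79, was the host gene without a window and was not searched. The window of SNHG17, whose lower probe had a mean of -0.86, below that of GAS5, held no match and is not shown. The motif occurred in 13.1% of the 35116 windows of all RefSeq genes and in 28 of the 147 windows (19%) of kept NR genes. The C/EBP-ATF element TGATGNAAN, searched on both strands, occurred in 3.61% of all windows, in 5 of the 147 NR windows and in 0 of the 12 host windows. A match or its lack in this window says nothing about binding.

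The genes around snoRNA production were examined beside the host genes. The snoRNAs themselves were nearly absent from the arrays, with 4 probes for small structured RNAs, of which 3 were kept. SNORD22, which is cut from an intron of SNHG1, gave ratios of -0.27 and -0.15, with signals of 523 and 751 in the control clone and 434 and 675 in cl-sh3. SNORA70 gave 0.00 and 0.03, and SCARNA17, a guide RNA of the Cajal body, gave 0.24 and -0.02. SNORD14E was not well above background. The labelling of RNA for these arrays starts from poly(A) tails, which mature snoRNAs lack. All 8 core proteins of snoRNA particles were kept, 0 met the 2-fold rule in either direction, and their median log2 ratio was -0.08, with medians of -0.08 and 0.05 in hybridizations 1 and 2 and a lowest mean of -0.33 for the pseudouridine synthase DKC1.

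Coding genes that carry snoRNAs in their introns had a median of -0.07 over 20 genes, against -0.47 for the noncoding host probes. The median was -0.22 in hybridization 1 and 0.10 in hybridization 2, so its sign differed between them. Of these genes, 0 met the rule, 8 were lower in both hybridizations and 4 were higher in both. The lowest were the import receptor IPO7, at -1.28 and -0.71, and the TAF1D subunit of an RNA polymerase I factor, at -0.73 and -1.06. The elongation factor EEF2 was the highest, at 0.64 and 0.67. The median of the 10 factors of nonsense-mediated decay was -0.07 and also differed in sign between hybridizations 1 and 2, at -0.24 and 0.06, and 0 met the rule. The lowest was UPF3A, at -0.71 and -0.34, and the highest was SMG5, at 0.34 and 0.39.

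**Figure D4:**
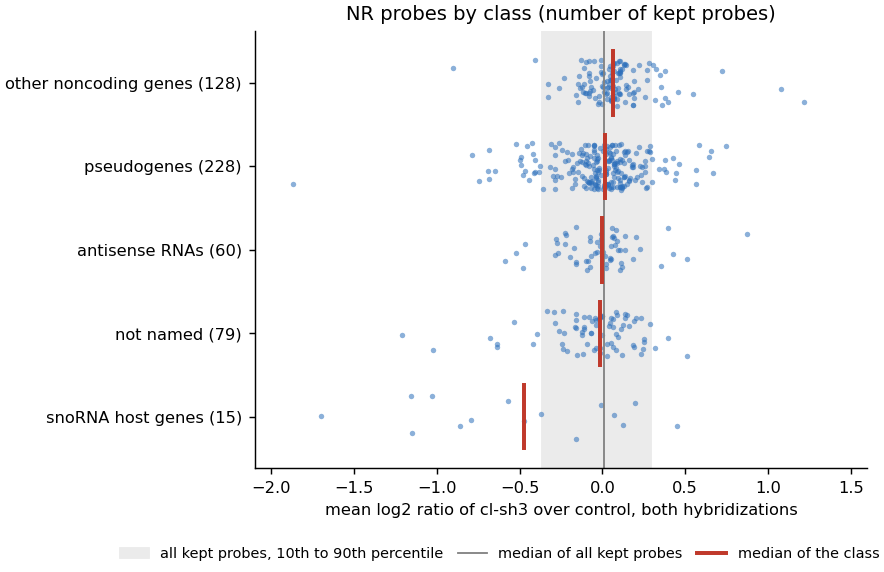
Mean log2 ratio of cl-sh3 over control (x axis) for each kept NR probe by class, with a red bar at each class median, a grey line at the median of all kept probes and a shaded band from their 10th to their 90th percentile (-0.36 to 0.29). The snoRNA host genes have a median of -0.47, while the medians of the other classes lie between -0.01 and 0.06, and the 3 small structured RNAs and 6 probes of coding genes are not drawn.

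Other long noncoding RNAs formed a class of 128 kept probes with a median log2 ratio of 0.06. In this class 41.4% of the probes were higher in both hybridizations and 14.1% were lower in both, and 0 met the 2-fold rule. Their probes were dim, with a median log2 intensity of 8.75. Among all kept probes between the quartiles of that intensity, 29.0% were higher in both hybridizations, 24.8% were lower in both, and the median was 0.01. The class also holds 21 probes for TTTY transcripts, which are named as testis-specific and Y-linked, and 12 of them were kept. Their median log2 intensity was 7.44, their median ratio was 0.06 like that of the class, and 6 were higher in both hybridizations and 0 lower in both. SKOV3 is an ovarian line, and a kept probe does not by itself show that its named transcript was present. The part of dim signal in the ratios of this class was not tested. UCA1, a long noncoding RNA first described in bladder carcinoma, had the highest mean ratio of all NR probes. Its signals were 19112 and 13902 in the control clone and 35558 and 40373 in cl-sh3. Both cl-sh3 values lay above both control values, which its place as the highest ratio makes likely, so this adds no further support. The log2 ratios were 0.90 and 1.54, so that hybridization 1 stayed under 2-fold.

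MALAT1, an abundant nuclear RNA linked to splicing, was measured by 4 probes, and all 4 had ratios above 0 in both hybridizations. The highest gave 0.92 and 1.23, with signals of 337 and 309 in the control clone and 638 and 725 in cl-sh3. The brightest gave 0.53 and 0.57, with 43259 and 35024 in the control clone and 62250 and 52016 in cl-sh3. The other two had means of 0.46 and 0.09. The 4 probes thus agreed in direction and spread over 0.99 log2 units in size. LINC00304 gave 0.71 and 0.73. At the other end, MIR100HG, the host transcript of miR-100 and its neighbours, gave -0.93 and -0.88 on its single probe. It was named after its values were seen, because it met the 2-fold rule with the scanner software's own ratios. MIR100HG also met the rule with the deposited ratios and with normexp offset 0.

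Of 36 long or structural noncoding RNAs listed for their known functions, 21 had an NR probe matched by symbol and 20 had a kept one. A listed RNA measured under 1 of the 75 identifiers without a symbol would be missed. Besides the host genes, UCA1 and MALAT1, the mean log2 ratios of the matched kept probes lay between -0.08 and 0.31. JPX, an activator of the X-inactivation transcript, gave 0.12 and 0.50, and XIST itself gave 0.21 and 0.17. The imprinted RNA H19 gave 0.09 and 0.08, and KCNQ1OT1 gave 0.32 and 0.05. Both MEG3 probes, with means of -0.08 and 0.08, changed sign between the hybridizations. HOTAIR, which recruits chromatin modifiers, changed sign at 0.29 and -0.07, and its control RNA was not well above background in hybridization 2. DLEU1 at 0.31 and -0.18, PVT1 at -0.04 and 0.15, and LINC-PINT at -0.16 and 0.23 also changed sign. LINC-PINT did not have both RNAs well above background in both hybridizations. MIAT gave 0.12 and 0.04. MIR155HG was not well above background.

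Pseudogenes were the largest class, with 228 kept probes and a median of 0.01. ATP8B5P, a remnant of the ATP8B family of lipid flippases, had the lowest ratio of all NR probes and was the 1 pseudogene that met the rule. Its signals were 2728 and 3201 in the control clone and 707 and 931 in cl-sh3. The log2 ratios of -1.95 and -1.78 make a mean 3.64-fold decrease. The values of the 2 clones did not overlap, which selection by the 2-fold rule makes likely. BRD7P3 gave -0.83 and -0.66 where BRD7 gave -0.16 and -0.30. TMED10P1 gave -0.91 and -0.45 where TMED10, a cargo receptor of the early secretory pathway, gave -0.27 and -0.33.

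The septin pseudogene SEPTIN7P2 had 3 kept probes, with means of -0.69, -0.65 and -0.50, and its parent SEPTIN7 had a mean of -0.73. On the higher side, DNM1P46, at 0.71 and 0.60, had a parent near 0, since DNM1 gave 0.07 and 0.04. HMGB3P1, at 0.46 and 0.67, had a parent below 0, with HMGB3 at -0.42 and -0.32. This pair was named after its values were seen. The 2 probes of LOC407835 had means of 0.67 and 0.64, and the 3 probes of POM121L8P had means of 0.74, 0.38 and 0.05.

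Over 75 pseudogenes with a kept parent probe, the mean log2 ratios of pseudogene and parent correlated with a Pearson's r of 0.45 and a Spearman's rho of 0.41. In 19 pairs all 4 values had the same sign, and in 9 pairs the pseudogene and the parent lay on opposite sides of 0 in both hybridizations. Of all kept pseudogene probes, 28.9% were higher in both hybridizations and 31.1% lower in both. For coding messages these shares were 29.8% and 30.2%. How many unrelated pairs would match in sign was not worked out. Pairs share the arrays, and some pseudogenes share a parent. Probe sequences were not used here, so binding of a pseudogene probe to the parent's message was not tested.

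**Figure D5:**
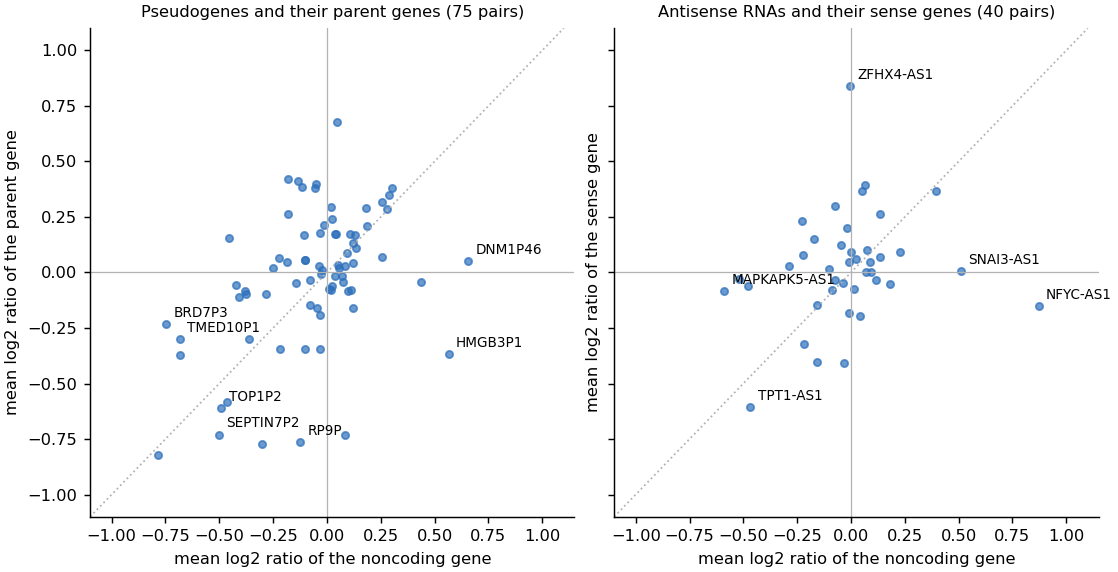
Mean log2 ratio of cl-sh3 over control for 75 pseudogenes against their parent genes (left) and for 40 antisense RNAs against their sense genes (right), each by its brightest kept probe, with a dotted line where both are equal. SEPTIN7P2 lies at -0.50 with SEPTIN7 at -0.73, while NFYC-AS1 lies at 0.87 with NFYC at -0.15.

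Antisense RNAs gave 60 kept probes with a median of 0.00, and 0 met the rule. NFYC-AS1, made beside the gene of the NF-Y subunit NFYC, was the highest, with ratios of 0.85 and 0.89. Its signals were 1056 and 603 in the control clone and 1906 and 1118 in cl-sh3, so that cl-sh3 was higher within each hybridization. NFYC gave 0.04 and -0.35. SNAI3-AS1 gave 0.27 and 0.76 where SNAI3 gave 0.15 and -0.13. On the lower side, the lowest of 3 probes of MAPKAPK5-AS1 gave -0.72 and -0.46, while the highest had a mean of 0.11. The kinase gene MAPKAPK5 gave -0.04 and -0.13. GABPB1-AS1 gave -0.77 and -0.26 where GABPB1 gave 0.01 and -0.06, and ZNF407-AS1 gave -0.60 and -0.36 where ZNF407 gave 0.07 and -0.19.

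The 3 probes of TPT1-AS1 differed. The lowest gave -0.73 and -0.21, while the others had means of -0.07 and 0.05, the last from a probe about as bright as the lowest. TPT1, a growth-associated protein whose gene also carries a snoRNA, gave -0.44 and -0.78. Over the 40 antisense RNAs with a kept sense probe, Pearson's r was 0.22 and Spearman's rho 0.26. In 6 pairs all 4 values had the same sign, and in 1 pair the partners were on opposite sides of 0 in both hybridizations. Of all kept antisense probes, 25% were higher in both hybridizations and 23.3% lower in both. For coding messages these shares were 29.8% and 30.2%. How many unrelated pairs would match in sign was not worked out, so these counts do not show shared regulation.

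The remaining NR probes were 79 kept probes whose accession had no symbol, with a median of -0.01, and 6 probes for noncoding variants of coding genes. NR_002802 gave signals of 5284 and 4469 in the control clone and 2104 and 2101 in cl-sh3, and the log2 ratios were -1.33 and -1.09, a mean 2.31-fold decrease. NR_003273 gave -1.31 and -0.74. CIRBP, which encodes a cold-inducible RNA-binding protein and has a noncoding variant, lay at the edge of the rule. One of its 3 NR probes gave -1.12 and -0.999, and the others had means of -0.03 and 0.07. The probes just inside the rule were SNHG12, at -1.03 in hybridization 2, and SNHG8, at -1.07.

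Several kept probes stood for 1 name in 82 cases, and the difference between the highest and the lowest mean of a name had a median of 0.17 log2 units. It reached 0.5 for 10 names and 1 for 2 names, CIRBP at 1.13 and SNHG17 at 1.06. SNHG1, SNHG12, SNHG8, ATP8B5P and NR_002802 each rested on 1 probe.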

How the data were processed

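cRNA made from 0.5 µg of total RNA of each SKOV3 clone (cl-sh3 and control) was measured on 2 dual-colour arrays with exchanged dyes. The authors deposited the intensity of each spot from Agilent Feature Extraction, version 10.5.1.1 per the file headers and 8.5.1.1 in the submitters' processing notes, without normalization. They also deposited the log10 ratio of Cy5 over Cy3 that this software computed with its own background correction and dye normalization, in each scanner file and in a table.

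In limma 3.58.1 (R 4.3.3), median intensities were corrected for local background with normexp (offset 50). Control spots were dropped, spots flagged as outliers were set to missing (153 and 144 of 43376 non-control spots), and loess was applied within each array. Spots of a probe were averaged as log2 of cl-sh3 over control. Signals were made comparable between arrays with Aquantile. An RNA counted as well above background where at least 50% of a probe's spots carried the flag. The rule for a difference asked for 2-fold or more, in the same direction, in each hybridization. The number of arrays limits the precision.

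Accessions were named, without versions, through the RefSeq table of GRCh38.p14, whose build differs from that of the array files (hg18), so gene coordinates are given only for RefSeq windows. Classes followed symbols and RefSeq gene types. The symbol rule for pseudogenes was used only where RefSeq gave no type. Named were all probes meeting the rule, the 8 largest means each way, all kept snoRNA host genes and small RNAs, the 6 antisense RNAs and 6 pseudogenes with the largest means, and the listed RNAs. The values of 1 pseudogene and its parent are not reported here. Partner and listed genes were read from their brightest kept probe. The 2 brightest RUNX2 probes carry a retired accession that the study's gene list names. The members, lists and rules were chosen with earlier results of these data known. The normalization and the rule were tested on simulated data. Only brighter probes were changed there, all by more than 2-fold, so calls near the 2-fold limit and on dim probes were not tested. Python 3.11.15, numpy 2.4.6, pandas 2.3.3 and matplotlib 3.10.9 were used.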

Additional observations from a re-analysis of the deposited data

How the results depend on the processing

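With 1 replicate, the values below show how far processing moves a result and not how far clones vary. The 5 probes that met the 2-fold rule as lower still met it under the other settings that used all NR probes, except median centring, which lost SNHG12 and left 4. The count of lower probes was 7 with normexp offset 0 and 6 with the software's ratios or the deposited table. It was 8 where the mean of both hybridizations had to reach 2-fold. Without the snoRNA host genes, an alternative chosen after seeing the data, it was 2. The count of higher probes was 1 with normexp offset 0 (MALAT1) and with median centring (UCA1), and 2 (MALAT1 and UCA1) with the software's ratios, the deposited table or the mean of both. Each hybridization alone, which leaves out the other, gave 0 to 2 higher and 5 to 11 lower probes.

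The median of the snoRNA host genes stayed below 0 under all alternatives run. It was -0.50 with offset 0, -0.41 with median centring, -0.52 where both RNAs had to be well above background, -0.53 with the software's ratios, -0.53 with the deposited table, and -0.57 with 1 probe a gene. The antisense median was 0.024 and the pseudogene median 0.028 with median centring, and the pseudogene median was -0.0089 without a filter on detection and where both RNAs were required. Over the single hybridizations the medians ran from 0.0020 to 0.031 for all NR probes, from -0.53 to -0.49 for snoRNA host genes, from -0.012 to 0.017 for antisense RNAs, from -0.018 to 7.2e-05 for pseudogenes and from 0.054 to 0.098 for other noncoding genes. Aquantile and both filters on detection leave a probe's ratio as it is by construction. Under the other alternatives, 409 of 424 values of named probes kept their sign. Many of these probes were named for large ratios, which makes this likely, and it says little about probes near 0. No paired analysis was possible because the 2 hybridizations hold the same pair of RNAs.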
